A study of Mus musculus with 6 samples.

Results

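The 47 genes described here carry a cell through mitosis. They are the cyclins, kinases, spindle checkpoint proteins, kinetochore proteins, motors and degradation factors listed by function below. They were chosen by name for their roles, with earlier results of these data known. Of the 47, 46 were measured, out of 18193 genes in all; Ccnb1 was not analysed here. Where a gene had several probe sets, the brightest on average over the 6 arrays stands for it. The arrays hold RNA from 6 clones of mouse embryonic fibroblasts, 1 array per clone, and each clone had immortalized spontaneously in culture. The 3 knockout clones, here KO E, KO H and KO J, came from FHL2-/- mice, which lack FHL2, an adaptor made of LIM domains that binds transcription factors and integrins. The 3 wild type clones, WT E, WT F and WT I, came from WT mice, and values by clone are given in this order throughout. The letters name clones and pair nothing, spontaneous immortalization is common to both groups, and the labels state neither the deleted part of the gene nor whether clones of 1 genotype derive from different embryos, so p-values measure the spread between clones.

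Most genes that build the spindle and the kinetochore are little transcribed in resting and early cycling cells and are made late in the cycle. In quiescent cells the MuvB proteins join p130 and E2F4 in the DREAM complex and repress these promoters through the cell cycle genes homology region, or CHR. In G2 MuvB works with B-Myb and FoxM1 to activate them. Cdk1 with its cyclins then starts mitosis, and the anaphase-promoting complex (APC/C) ends it by having cyclin B and securin destroyed. In cultured fibroblasts, levels of these transcripts follow the share of dividing cells. RNA from a whole culture cannot tell fewer cells in mitosis from less of each transcript per cell.

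The mitotic genes were lower in FHL2 knockout clones almost throughout. Levels are RMA values on the log2 scale, and differences are knockout minus wild type on that scale, so that -1 is a 2-fold lower level. A gene is said to fall or rise where the adjusted p of the limma fit over all 18193 genes lay under 0.05. Of the 46 measured genes, 25 fell and 0 rose. That is 54.3% lower, where over all genes 10.0% fell, 9.04% rose and 19.0% passed in either direction. At an unadjusted p under 0.05, in either direction, there were 33 genes of the 46, against 33.2% of all genes. The differences lay below 0 in 44 genes and above it in 2, against 7928 below and 10265 above among all 18193 genes. The median difference was -0.96, against 0.04 over all genes. In 34 genes every knockout clone lay below every wild type clone, as in 18.2% of all genes. In 0 genes did every knockout clone lie above every wild type clone, as in 20.7% of all genes. The level was at least 2-fold lower in 22 of the 46, against 5.71% of all genes. The largest fall was that of Pttg1, which encodes securin, and at the other end Kif15, Top2a and Plk4 differed by 0.18, 0.01 and 0.00. The median SE was 0.245 over these genes and 0.141 over all genes.

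**Figure D1:**
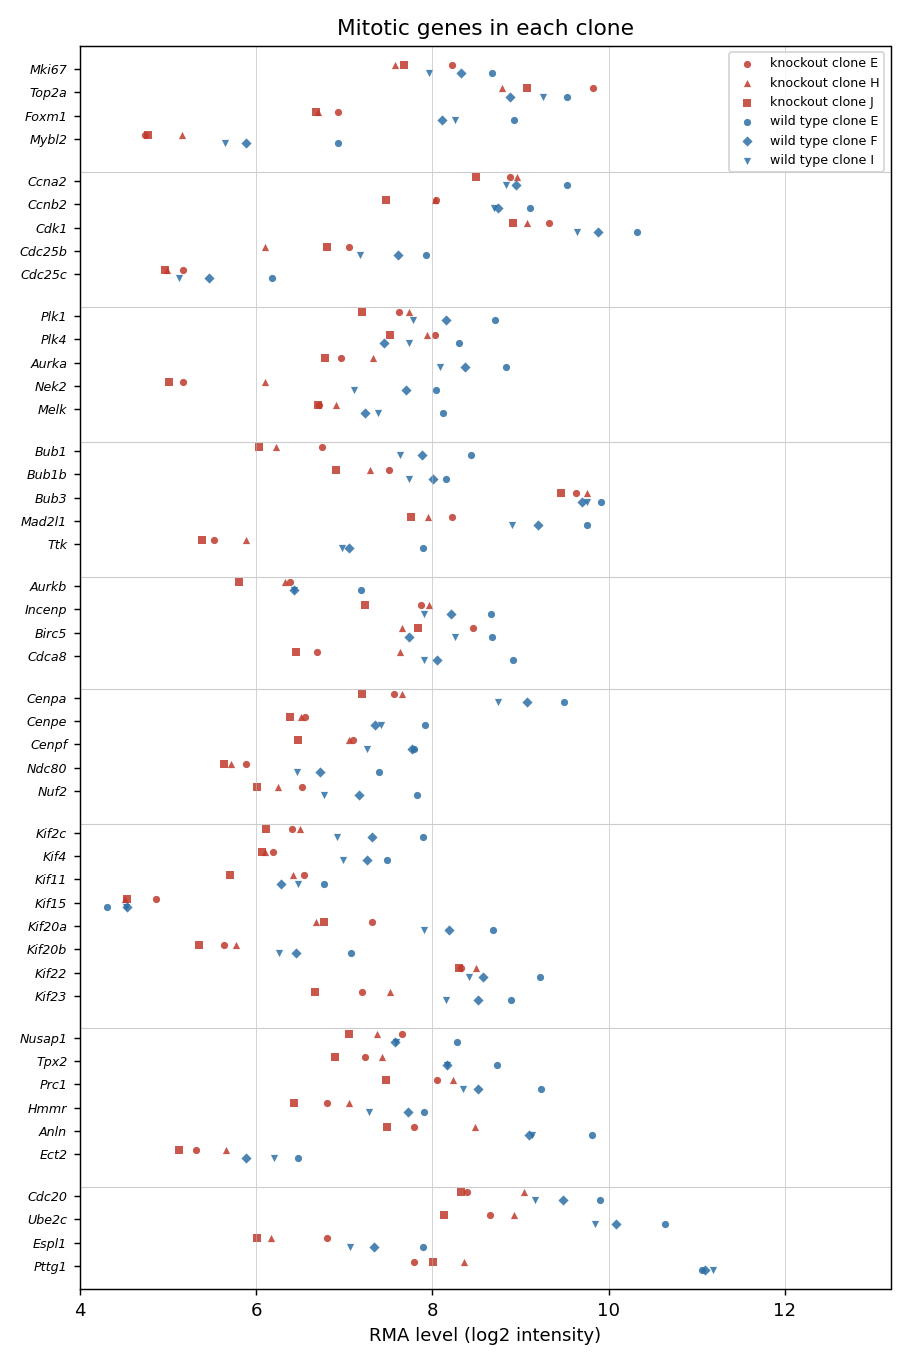
Level of each of the 46 measured mitotic genes in each clone (x axis, log2 RMA intensity; rows grouped by function, knockout points above wild type points). Knockout clones lie left of wild type clones in 34 rows, with the widest gap at Pttg1 (8.05 against 11.11 on average).

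Several facts of the arrays bear on these values. Fhl2 itself read 6.01, 6.44 and 6.57 in knockout clones, against 9.88, 8.57 and 9.64 in wild type clones. KO H stood apart from its group, correlating over all probe sets at 0.970 and 0.973 with KO E and KO J, which correlated at 0.991 with each other. The median probe set of an array read 4.52 to 4.54 in knockout clones, against 4.44 to 4.46 in wild type clones, a shift opposite in sign to that of the mitotic genes. The 3' to 5' difference of Gapdh, a sign of RNA quality, ran from -0.119 up to -0.045 among knockout clones and from -0.041 up to 0.052 among wild type clones. The same difference for actin was 0.103 to 0.235 among knockout clones and 0.0929 to 0.133 among wild type clones, so it overlapped and leaned the other way; the part of either in the results was not tested. All 10 fibroblast markers read above the median gene level, of which Pdgfra, Dcn and Lum rose and Pdgfrb and Thy1 fell, and their summed log2 level lay between 120 and 122 among knockout clones and between 110 and 118 among wild type clones. Of the markers of other cell types (epithelial, endothelial, haematopoietic, skeletal muscle and neural), 3 read above the median gene level: Epcam, which rose, and Nes and Tubb3, which fell. The summed level of the 3 neural markers, Sox2, Nes and Tubb3, lay between 13 and 16 among knockout clones and between 17.2 and 18.9 among wild type clones, that of the 4 epithelial markers 18.1 to 18.2 and 17.7 to 19.7, and the part of either in the results was not tested.

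The mitotic genes moved together within each genotype as well as between them. Taken as the level minus the wild type mean, the median over the 46 genes was -0.85, -0.83 and -1.20 in knockout clones, against 0.43, -0.11 and -0.34 in wild type clones. Over all genes the same medians lay between 0.02 and 0.05 for the knockout clones and between -0.02 and 0.01 for the wild type. WT E was the highest of its group in 44 of the 46 genes, where it was so in 32.6% of all genes. KO J was the lowest of its group in 38 of the 46, against 28.7% of all genes. WT I was the lowest of its group in 32 genes, against 36.6% of all genes. KO E and KO H were each the highest of theirs in 23 (33.8% and 35.3% of all genes), so the highest knockout clone differed from gene to gene. Genes that move together are not independent observations, and their counts rest on 3 clones per genotype.

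The count of falls changed when a clone was left out, as did the share over all genes, which was 10.0% with all 6 clones. The median kept its sign in each fit. Without WT E, 15 mitotic genes fell (4.86% of all genes) and the median was -0.74; without KO J, 13 fell (5.07%) and the median was -0.84. Leaving out WT F also gave 13 (5.59%), with a median of -1.01. Without KO E the count was 17 (6.11%), without WT I 22 (6.51%), and without KO H 26 (13.4%). In each of these 6 fits 0 mitotic genes rose. Foxm1, Aurka, Nek2, Ttk, Bub1, Cenpa, Cenpe, Kif4, Tpx2, Ube2c and Pttg1, 11 in all, fell in each of the 6.

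**Figure D2:**
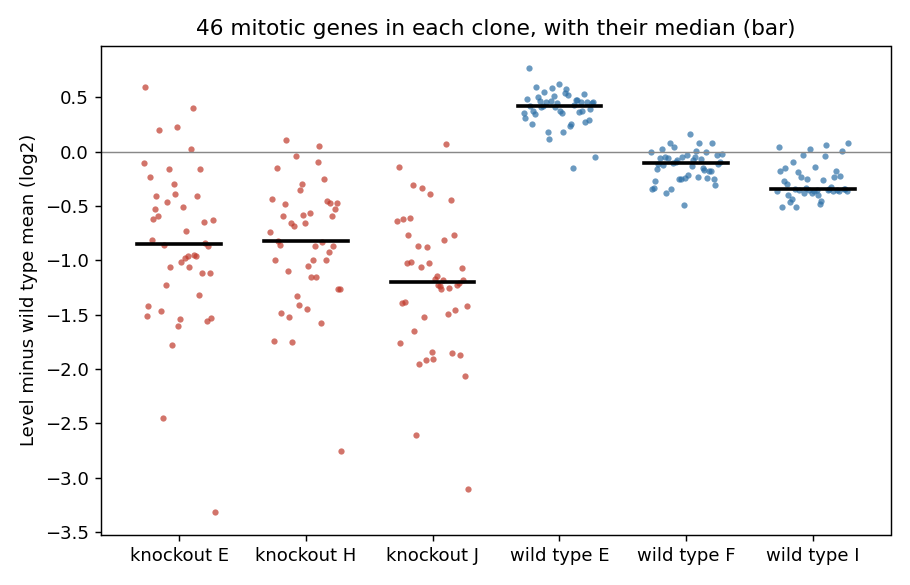
Level of the 46 mitotic genes minus their wild type mean (y axis, log2) in each of the 6 clones; each point is a gene and each bar the median of a clone. The medians of knockout clones lie between -1.20 and -0.83, and those of wild type clones between -0.34 and 0.43, with WT E highest.

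The promoters of these genes shared letters that the choice of genes did not use. RefSeq windows of 300 bases (GRCm38.p6), from 250 before to 50 after an annotated start, matched 39 of the measured genes; for 33 the start lay within 100 bases of the gene's 5' end. The CHR was searched as TTTGAA or TTCGAA and the site of the factor NF-Y as CCAAT, on both strands. A CHR was found in 29 of the 39 promoters (74.4%), against 15.0% of the 14452 promoters of genes on the array. In 27 of the 29 it began within 50 bases of the start. CCAAT was found in 26 (66.7% against 38.2%), at 2 or more places in 18, and both motifs in 24 (61.5% against 6.1%). E2F-like words (TTTGGCGC, TTTCCCGC, TTTCGCGC or TTTGCCGC) were found in 2 (5.1% against 3.4%). Where a CCAAT box and its reverse complement overlap, both were counted.

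Genes with and without a CHR had similar medians. The median difference was -0.93 in the 29 genes with a CHR and -1.04 in the 10 without. In the same groups 17 of the 29 and 5 of the 10 fell, where 10.0% of all genes did. The 6 promoters below show both sides and were chosen after their letters and values were seen. Capitals mark CHR and CCAAT words on either strand (TTCAAA and ATTGG on the reverse), and each is written in the direction of its gene. Ube2c (chr2:164769679-164769978), Bub1 (chr2:127831810-127832109, minus strand) and Ttk (chr9:83834439-83834738) held both motifs, with differences of -1.61, -1.65 and -1.71. Nek2 (chr1:191821223-191821522) held CCAAT without a CHR and fell by 2.19. Top2a (chr11:99024140-99024439, minus strand) held 4 CHR and 6 CCAAT words and differed by 0.01, and Plk4 (chr3:40799701-40800000) held neither and differed by 0.00.
Ube2c: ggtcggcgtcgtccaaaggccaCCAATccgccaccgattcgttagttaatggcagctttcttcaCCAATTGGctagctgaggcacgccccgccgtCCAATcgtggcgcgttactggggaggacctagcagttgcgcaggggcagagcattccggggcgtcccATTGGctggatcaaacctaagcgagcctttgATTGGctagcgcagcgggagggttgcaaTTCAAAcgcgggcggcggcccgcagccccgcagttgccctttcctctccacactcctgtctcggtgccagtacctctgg
Bub1: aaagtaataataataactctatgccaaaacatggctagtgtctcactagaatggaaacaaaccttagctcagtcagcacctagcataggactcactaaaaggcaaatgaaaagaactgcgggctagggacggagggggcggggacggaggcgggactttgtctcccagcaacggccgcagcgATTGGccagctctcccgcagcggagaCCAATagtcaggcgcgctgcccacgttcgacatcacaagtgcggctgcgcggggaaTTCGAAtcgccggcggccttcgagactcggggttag
Ttk: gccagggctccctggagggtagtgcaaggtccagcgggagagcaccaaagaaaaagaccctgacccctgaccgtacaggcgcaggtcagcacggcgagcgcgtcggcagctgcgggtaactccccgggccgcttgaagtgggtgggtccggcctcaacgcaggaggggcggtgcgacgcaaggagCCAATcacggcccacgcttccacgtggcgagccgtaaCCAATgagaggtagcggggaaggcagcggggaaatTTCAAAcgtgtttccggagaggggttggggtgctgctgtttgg
Nek2: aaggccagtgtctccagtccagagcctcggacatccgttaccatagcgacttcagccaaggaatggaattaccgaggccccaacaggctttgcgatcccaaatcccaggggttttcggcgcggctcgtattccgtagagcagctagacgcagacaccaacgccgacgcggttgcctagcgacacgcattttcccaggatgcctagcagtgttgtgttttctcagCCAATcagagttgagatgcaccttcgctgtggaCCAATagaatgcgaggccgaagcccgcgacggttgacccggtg
Top2a: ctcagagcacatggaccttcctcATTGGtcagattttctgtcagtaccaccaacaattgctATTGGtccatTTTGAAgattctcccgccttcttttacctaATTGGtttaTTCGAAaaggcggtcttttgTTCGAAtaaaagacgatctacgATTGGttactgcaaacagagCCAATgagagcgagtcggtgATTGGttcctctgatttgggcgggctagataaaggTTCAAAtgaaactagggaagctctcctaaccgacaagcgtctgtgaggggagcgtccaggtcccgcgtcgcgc
Plk4: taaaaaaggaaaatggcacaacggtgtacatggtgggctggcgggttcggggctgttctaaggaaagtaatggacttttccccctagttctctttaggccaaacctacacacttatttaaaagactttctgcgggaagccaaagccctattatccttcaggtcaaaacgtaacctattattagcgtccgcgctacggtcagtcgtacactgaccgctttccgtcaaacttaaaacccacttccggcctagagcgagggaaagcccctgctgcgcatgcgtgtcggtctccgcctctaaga
The window of Pttg1 is counted among the 10 without a CHR, although its start lies 1482 bases inside the gene, which spans chr11:43420244-43427463. Leaving Pttg1 out, a step chosen after seeing the data, gave a median of -0.99 over the other 9 genes, of which 4 fell. Among the 29 with a CHR, the start of Kif2c lies 3852 bases inside its gene. Those of Cdc25b, Ect2 and Aurka lie 512, 375 and 316 bases inside. Among the other 9 without a CHR, the start of Mybl2 lies 308 bases inside its gene. Kif2c, Cdc25b, Ect2, Aurka and Mybl2 were not left out, so the contrast was changed on 1 side only, by Pttg1 alone.

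Both transcription factors of the G2 programme fell, while the 2 classical proliferation marks did not pass. Foxm1, the forkhead factor that activates G2 genes, read 6.93, 6.70 and 6.68 in knockout clones, against 8.93, 8.11 and 8.26 in wild type clones. The groups did not overlap, and Foxm1 fell by 1.67 (SE 0.22, limma adjusted p = 0.00598), or 3.18-fold. Mybl2, which encodes B-Myb, the partner of MuvB, read 4.74, 5.16 and 4.77 in knockout clones, against 6.93, 5.89 and 5.65 in wild type clones. Its groups were also apart, with WT E highest, and it fell by 1.27 (SE 0.34, limma adjusted p = 0.0458). It did not pass without KO E (0.124), KO J (0.135) or WT F (0.0858). Mki67, the gene of the Ki-67 antigen that coats mitotic chromosomes, read 8.22, 7.58 and 7.68 in knockout clones, against 8.68, 8.32 and 7.96 in wild type clones. KO E lay above WT I, and the difference of -0.49 (SE 0.24) did not pass (limma adjusted p = 0.209). Top2a, the topoisomerase that untangles sister chromatids, read 9.82, 8.79 and 9.08 in knockout clones, against 9.53, 8.88 and 9.26 in wild type clones. Its highest and its lowest reading were both in knockout clones, and its means were 9.23 ± 0.532 in knockout and 9.22 ± 0.324 in wild type clones (SD, n = 3 each).

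Among the drivers of mitotic entry, Cdk1 and its cyclin partner Ccnb2 fell and Ccna2 did not pass. Ccnb2, a B-type cyclin, read 8.04, 8.03 and 7.47 in knockout clones, against 9.11, 8.74 and 8.70 in wild type clones. It fell by 1.01 (SE 0.20, limma adjusted p = 0.0185), which did not pass without WT E (0.0668) or WT F (0.0522). Cdk1, the kinase that starts mitosis, read 9.32, 9.08 and 8.92 in knockout clones, against 10.32, 9.88 and 9.64 in wild type clones. The groups were separated by 0.32 between KO E and WT I, less than the range within either. Cdk1 fell by 0.84 (SE 0.20, limma adjusted p = 0.0328), or 1.79-fold, and did not pass without KO E (0.0529) or KO J (0.109), nor without WT E (0.0764) or WT F (0.0835). Ccna2, cyclin A2, which acts in S phase as well as in G2, read 8.88, 8.96 and 8.49 in knockout clones, against 9.53, 8.95 and 8.84 in wild type clones. Clones of the genotypes overlapped, and the difference was -0.33 (SE 0.22, limma adjusted p = 0.355). The Cdc25 phosphatases, which remove the inhibitory phosphates from Cdk1, differed by -0.92 for Cdc25b (limma adjusted p = 0.0779) and -0.54 for Cdc25c (0.214). Cdc25b was lower in all 3 knockout clones than in any wild type clone, and Cdc25c was not.

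Of 5 further mitotic kinases, Nek2 and Aurka fell, where 10.0% of all genes did, and Plk1, Plk4 and Melk did not pass. Nek2, which drives centrosome separation, read 5.17, 6.10 and 5.01 in knockout clones, against 8.04, 7.70 and 7.11 in wild type clones. KO H was the highest of the knockout clones and still lay 1.01 below the lowest wild type clone. Nek2 fell by 2.19 (SE 0.35, limma adjusted p = 0.00985), or 4.56-fold, and a second probe set fell by 1.26 (limma adjusted p = 0.0189 over all probe sets). Its other probe sets, both dim, differed by 0.13 and -0.14. Aurka, the Aurora A kinase of spindle poles, read 6.96, 7.33 and 6.78 in knockout clones, against 8.84, 8.37 and 8.09 in wild type clones. It fell by 1.41 (SE 0.23, limma adjusted p = 0.0102), or 2.67-fold, while its second probe set, dim at 2.50 to 2.83, differed by 0.19. Plk4, which starts centriole duplication, read 8.03, 7.94 and 7.52 in knockout clones, against 8.30, 7.45 and 7.74 in wild type clones. Both means were 7.83, and its 2 other probe sets differed by 0.09 and 0.04. Plk1, the polo kinase with roles from entry to cytokinesis, and Melk were lower in all knockout clones without passing (-0.70, limma adjusted p = 0.118, and -0.80, 0.0646).

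The spindle checkpoint, which holds anaphase until each kinetochore is attached, had 4 of its 5 genes fall, against 10.0% of all genes. Ttk, the Mps1 kinase at the top of the checkpoint, read 5.52, 5.89 and 5.38 in knockout clones, against 7.89, 7.05 and 6.97 in wild type clones. Over 1 log2 unit lay between the groups, and Ttk fell by 1.71 (SE 0.27, limma adjusted p = 0.00964), or 3.27-fold. Its second probe set, dim at 2.75 to 3.20, differed by 0.18. Bub1, a kinase that recruits checkpoint proteins to kinetochores, read 6.75, 6.23 and 6.03 in knockout clones, against 8.44, 7.88 and 7.63 in wild type clones. It fell by 1.65 (SE 0.27, limma adjusted p = 0.0101), and its second probe set by 0.65 (0.0409 over all probe sets). Mad2l1, the MAD2 protein that inhibits Cdc20, fell by 1.31 (SE 0.24, limma adjusted p = 0.0140), which did not pass without KO J (0.0539). Bub1b, or BubR1, fell by 0.73 (SE 0.19, limma adjusted p = 0.0407). That call did not survive leaving out KO J (0.101), WT E (0.134), WT F (0.115) or WT I (0.0580). Bub3, the scaffold that carries Bub1 and BubR1 to kinetochores, was the exception. It read 9.63, 9.75 and 9.46 in knockout clones, against 9.91, 9.70 and 9.76 in wild type clones, with overlap and a difference of -0.18 (SE 0.12, limma adjusted p = 0.359). A second, dimmer probe set of Bub3 differed by 0.43, so its probe sets did not share a sign.

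None of the 4 genes of the chromosomal passenger complex passed, at a median of -0.54, and 1 of the 4 had an unadjusted p under 0.05 in limma, where 33.2% of all genes did. This complex, with Aurora B at its core, corrects faulty attachments and later marks the cleavage plane. Cdca8, or borealin, read 6.69, 7.63 and 6.45 in knockout clones, against 8.91, 8.05 and 7.91 in wild type clones. KO H lay nearest to the wild type clones, and the difference of -1.36 (SE 0.39) missed the threshold (limma adjusted p = 0.0544). Cdca8 passed without KO H (-1.72, 0.00839). Incenp, the scaffold of the complex, read 7.87, 7.96 and 7.24 in knockout clones, against 8.67, 8.21 and 7.91 in wild type clones, with 1 knockout clone above the lowest wild type clone. Birc5, or survivin, read 8.46, 7.65 and 7.84 in knockout clones, against 8.68, 7.74 and 8.26 in wild type clones, and the groups overlapped. The differences were -0.57 (limma adjusted p = 0.190) for Incenp, -0.24 (0.627) for Birc5 and -0.51 (0.230) for Aurkb, which encodes Aurora B.

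All 5 centromere and kinetochore genes lay lower in every knockout clone than in any wild type clone, as did 18.2% of all genes. Of the 5, 3 fell, against 10.0% of all genes. Cenpa, the histone H3 variant that marks centromeres, read 7.57, 7.66 and 7.20 in knockout clones, against 9.49, 9.08 and 8.75 in wild type clones. Its difference was -1.63 (SE 0.22, limma adjusted p = 0.00587) by a probe set with the suffix _a_at, which can match several transcripts of a gene. The brightest of its other probe sets differed by -0.59 (SE 0.44, limma adjusted p = 0.423 over all probe sets). Cenpe, the kinetochore motor that moves chromosomes to the spindle equator, read 6.55, 6.51 and 6.39 in knockout clones, against 7.92, 7.35 and 7.42 in wild type clones. Knockout clones differed little from each other, and Cenpe fell by 1.08 (SE 0.17, limma adjusted p = 0.00925). Ndc80, which binds microtubules, fell by 1.12 (SE 0.24, limma adjusted p = 0.0241), while its partner Nuf2 differed by -0.99 (0.0550). Ndc80 did not pass without KO E (0.0563), KO J (0.0840) or WT F (0.0631), and Nuf2 passed without WT I (0.0405). Cenpf, a large protein of the outer kinetochore, read 7.10, 7.05 and 6.47 in knockout clones, against 7.79, 7.77 and 7.26 in wild type clones. It differed by -0.73 (SE 0.23), which did not pass (limma adjusted p = 0.0714).

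Of 8 kinesins, 5 fell and 3 did not pass, where 10.0% of all genes fell. Kif4, a chromosome-bound motor that works on the central spindle and is encoded on chromosome X, read 6.19, 6.10 and 6.07 in knockout clones, against 7.49, 7.26 and 6.99 in wild type clones. The knockout clones lay within 0.13 of each other, and Kif4 fell by 1.13 (SE 0.15, limma adjusted p = 0.00528). Kif20a, which brings the passenger complex to the central spindle, read 7.31, 6.68 and 6.77 in knockout clones, against 8.69, 8.19 and 7.91 in wild type clones. It fell by 1.34 (SE 0.25, limma adjusted p = 0.0158), which did not pass without KO J (0.0611) or WT F (0.0522). Kif23, of the centralspindlin complex, fell by 1.40 (limma adjusted p = 0.0171), but not without WT E (0.0620) or WT F (0.0591). Kif2c, which depolymerizes microtubules at centromeres, and Kif20b, a motor of late cytokinesis, differed by -1.03 and -1.01 (limma adjusted p = 0.0364 and 0.0297, both passing). Neither passed without KO E (0.0865 and 0.0752) or KO J (0.118 and 0.0998), nor without WT E (0.0714 and 0.0527) or WT F (0.0949 and 0.0702). The call of Kif20b also ended when probe sets were averaged (-0.32, 0.135) or those with a suffix were dropped (-0.36, 0.199). Kif11, or Eg5, which pushes spindle poles apart, read 6.54, 6.42 and 5.70 in knockout clones, against 6.77, 6.28 and 6.47 in wild type clones, with overlap (-0.29, limma adjusted p = 0.485). Kif15, which acts beside Kif11, differed by 0.18 (limma adjusted p = 0.421) and read at percentile 36.6 of gene levels, the lowest of the mitotic genes. Kif22, a motor on chromosome arms, differed by -0.36 (limma adjusted p = 0.297).

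Spindle assembly and cytokinesis genes followed, with 4 of 6 falling, against 10.0% of all genes. Tpx2, which activates Aurora A on the spindle, read 7.23, 7.43 and 6.89 in knockout clones, against 8.73, 8.17 and 8.17 in wild type clones. The groups were clearly apart by this probe set, and Tpx2 fell by 1.17 (SE 0.21, limma adjusted p = 0.0137). A second probe set, at 5.82 to 7.16, differed by -0.56 (SE 0.27) and did not pass (limma adjusted p = 0.214 over all probe sets). The remaining probe sets of Tpx2 differed by -0.05 and -0.19 and did not pass either. Anln, or anillin, the scaffold of the contractile ring, read 7.79, 8.48 and 7.48 in knockout clones, against 9.81, 9.10 and 9.13 in wild type clones. It fell by 1.43 (SE 0.31, limma adjusted p = 0.0240), but this held without KO H alone and not without any other clone (0.0547 to 0.0784). Ect2, the exchange factor that switches on RhoA at the cleavage furrow, fell by 0.82 (limma adjusted p = 0.0363), but not without KO E (0.1) or KO J (0.114), nor without WT E (0.109) or WT I (0.0984). Hmmr, a spindle protein that also binds hyaluronan, fell by 0.88 (limma adjusted p = 0.0382), but not without KO E (0.0925) or KO J (0.109), nor without WT E (0.124) or WT F (0.113). With suffixed probe sets dropped, Hmmr differed by -0.09 (0.788), by a dim probe set that read 2.90 to 3.54. Its other suffixed probe sets differed by -0.87, -0.96 and -1.20 (limma adjusted p = 0.0451, 0.0413 and 0.00914 over all probe sets). Nusap1, which bundles spindle microtubules, read 7.66, 7.37 and 7.05 in knockout clones, against 8.28, 7.58 and 7.59 in wild type clones. It overlapped between genotypes (-0.46, limma adjusted p = 0.248), and Prc1, the bundler of the spindle midzone, did not pass (-0.78, 0.117).

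The genes of mitotic exit held the largest fall. Pttg1 encodes securin, which keeps separase inactive until anaphase, and read 7.79, 8.36 and 8.01 in knockout clones, against 11.06, 11.09 and 11.19 in wild type clones. The 3 wild type clones lay within 0.13 of each other, and WT E was not the highest, unlike in 44 of the other mitotic genes. Pttg1 fell by 3.06 (SE 0.16, limma adjusted p = 4.68e-04), or 8.32-fold, the fall ranked 76 among all genes. A second probe set fell by 1.81 (limma adjusted p = 0.00146 over all probe sets), while the third, a dim one and the only one with no _s_at or _a_at suffix, differed by -0.45 (SE 0.16, 0.109). Ube2c, the E2 enzyme of the APC/C, read 8.66, 8.93 and 8.13 in knockout clones, against 10.64, 10.08 and 9.85 in wild type clones. It fell by 1.61 (SE 0.28, limma adjusted p = 0.0119), or 3.06-fold. Espl1, which encodes separase, the protease held by securin, fell by 1.11 (limma adjusted p = 0.0403), which held without KO E and not without any other clone (0.0526 to 0.126). Cdc20, the activator of the APC/C at anaphase, read 8.39, 9.04 and 8.33 in knockout clones, against 9.90, 9.48 and 9.17 in wild type clones. KO H came close to the wild type clones, the difference of -0.93 (SE 0.26) did not pass (limma adjusted p = 0.0520), and it passed without KO H (-1.15, 0.0102).

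**Figure D3:**
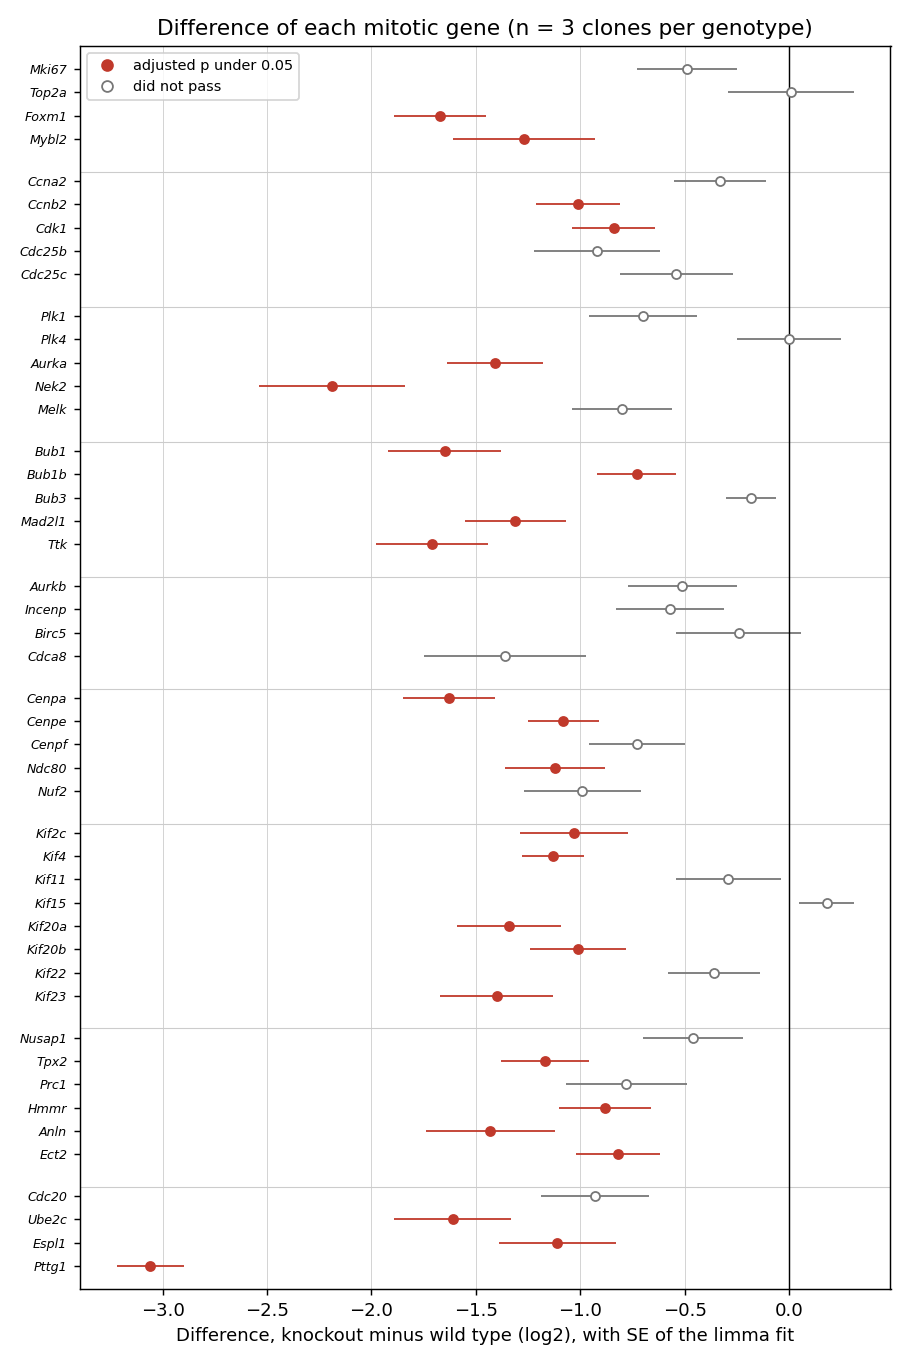
Difference of each mitotic gene, knockout minus wild type (x axis, log2; bars, SE from limma with 3 clones of each genotype), with genes grouped by function as in the text. Filled points mark the 25 genes that fell; Pttg1 lies at -3.06 and Kif15 at 0.18.

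Genes with more than 1 probe set often had dimmer ones that did not pass. There were 30 such genes with 60 further probe sets, of which 47 differed below 0, 12 fell and 0 rose when all probe sets were tested together. The shares over all probe sets were not counted, so these counts have no background of their own. By the brightest probe set of each gene, 10.0% of all genes fell and 9.04% rose.

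Other genes of the same processes, in 5 lists that leave out the 46, were also described, with no test of the difference from the 46. Of 107 measured genes, 35 fell and 3 rose (32.7% and 2.8%), with a median of -0.44. Over all genes 10.0% fell and 9.04% rose, with a median of 0.04. WT E was the highest of its group in 81 of the 107, against 32.6% of all genes. In the kinetochore list 9 of 29 fell, led by Cenpi, a subunit of the inner kinetochore network, by 1.45 (SE 0.23, limma adjusted p = 0.00890). Cenpw and Cenpq, of the same network, passed at -1.42 (0.0152) and -0.99 (0.0164). Cenpw did not pass without WT E (0.0580), nor Cenpq without KO J (0.0631) or WT F (0.0511). In the condensin and cohesin list 8 of 20 fell. The condensin subunits Ncapg2 and Ncapd2 passed at -0.84 and -1.39 (limma adjusted p = 0.00687 and 0.00949), and the cohesin subunit Rad21 fell by 0.99 (0.00842). The APC/C list stood at 1 lower and 1 higher of 15 (6.67% each), no more than the shares over all genes. Its median was 0.04, whose sign turned under several settings. Ube2s, which extends ubiquitin chains for the APC/C, fell by 0.78 (limma adjusted p = 0.0218), but not without KO J (0.0738), WT E (0.0787), WT F (0.0753) or suffixed probe sets (0.407). Anapc2, a core subunit, rose by 0.48 (0.0422) and passed in no fit without a clone other than KO H (0.0757 to 0.132), nor with each array centred on its median (0.0614). Anapc11, the RING subunit, differed by 0.97 (0.0585).

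In the further spindle list 15 of 37 fell and 2 rose (40.5% and 5.41%, against 10.0% and 9.04% of all genes). H2az1, which encodes a histone H2A variant, read 8.85, 8.62 and 8.52 in knockout clones, against 10.74, 10.56 and 10.63 in wild type clones. It fell by 1.98 (SE 0.12, limma adjusted p = 7.87e-04). Kif18a, the motor that damps chromosome movement at the metaphase plate, fell by 0.99 (limma adjusted p = 0.00485). Psrc1, a microtubule regulator that is also known as a target of p53, went the other way. It read 8.81, 9.09 and 9.02 in knockout clones, against 5.73, 5.39 and 4.53 in wild type clones, and rose by 3.75 (SE 0.30, limma adjusted p = 0.00160). Numa1, which gathers microtubules at spindle poles and is named after its value was seen, rose by 0.51 (limma adjusted p = 0.0459) and passed in no fit without a clone other than KO H (0.0836 to 0.141), nor with a trended prior (0.0562), median centring (0.0610) or probe sets averaged (0.0703). Among MuvB proteins and their partners 2 of 6 fell. Lin9 fell by 1.06 (limma adjusted p = 0.0113), and Lin54, the subunit that contacts the CHR, fell by 0.74 (0.0282). Lin9 was dim, at 3.60 to 3.96 in knockout clones and 4.53 to 5.11 in wild type clones, under the median gene level of 5.92. Lin54 did not pass without KO E (0.0737), KO J (0.0967) or WT F (0.0702), nor with probe sets averaged (-0.31, 0.0798). Rbbp4, a histone-binding subunit, differed by -0.72 (0.0951).

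**Figure D4:**
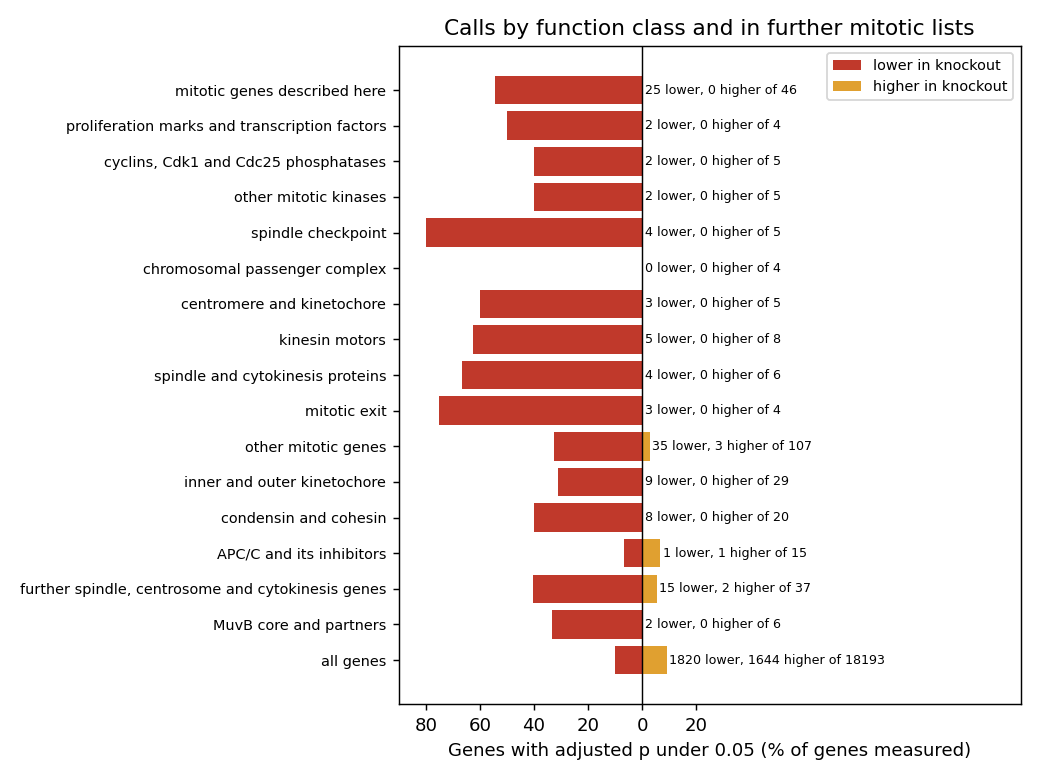
Share of measured genes with an adjusted p under 0.05 (x axis, percent; left, lower in knockout; right, higher) for the mitotic genes, their 9 function classes, 5 further lists and all genes. The mitotic genes stand at 54.3% lower and 0 higher, all genes at 10.0% lower and 9.04% higher.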

How the data were processed

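Gene expression was measured on 1-colour Affymetrix 3' arrays, 1 array for each of 6 clones, with 45101 probe sets. The deposited values are log2 intensities that the authors made with RMA, per the submitters' processing notes; no version or settings are given in the labels. There is no read depth, so the 3 clones per genotype, with 4 residual degrees of freedom, set the precision. Ccnb1 was not analysed here. Groups and clone letters come from the sample titles. Control probe sets (64), those with several symbols (932) and those without a gene name (9160) were left out. The remaining 34945 gave 18193 genes, each, with the brightest probe set on average standing for each; no gene was left out for a low level, and 42 of the 46 mitotic genes read at or above the median gene level of 5.92. The fit was made by limma 3.58.1 under R 4.3.3 with genotype as its sole term (lmFit, eBayes), and p-values were adjusted by Benjamini-Hochberg over all genes at 0.05. Promoter letters were counted without a test. The genes, lists, classes and markers were chosen with earlier results of these data known. Each clone's values are given for the 2 genes with the smallest and the 1 with the largest unadjusted p in each of 9 classes, and for Mki67, Top2a, Cdk1 and Foxm1; further lists contribute up to 3 genes with the smallest p. In simulated data of 18193 genes with 200 changed, 54% of 2-fold and 89% of 4-fold changes were recovered, with 10 false calls among 153. Genes were drawn independently there, and far fewer were changed than the 3464 called in the real data. These rates therefore need not hold for the mitotic genes, which moved together. Refits left out each clone, centred arrays on their medians, repeated the quantile step, filtered by level, averaged probe sets, dropped those ending in _x_at, _s_at or _a_at, weighted arrays, or changed the prior to a trended robust one; a 2-fold threshold was also tried. Figures were drawn with matplotlib 3.10.9.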

Additional observations from a re-analysis of the deposited data

How the results depend on the processing

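Among the mitotic genes 0 rose under any setting, and the median difference kept its sign, from -1.11 to -0.74. The count of 25 falls was 19 to 30 under settings that kept all clones (21 with a 2-fold threshold, 19 of 38 without _x_at, _s_at and _a_at probe sets) and 13 to 26 with 1 clone left out. Of the 25 genes, 9 fell in each of 13 refits: Foxm1, Aurka, Nek2, Bub1, Ttk, Cenpe, Kif4, Tpx2 and Ube2c. Over all genes, 3464 were called, 1495 with a 2-fold threshold and 1661 to 4750 with 1 clone left out. For the other mitotic genes, falls were 12 to 39 and rises 1 to 7 with 1 clone left out; with a 2-fold threshold there were 20 and 1, and rises were 1 with median centring and 6 with array weights. With those suffixed probe sets dropped, the falls of Cenpa (-0.59, limma adjusted p = 0.426), Pttg1 (-0.45, 0.107), Kif20b (-0.36, 0.199) and Hmmr (-0.09, 0.788) did not pass. The Hmmr probe set left in that refit was dim, with means of 3.10 in knockout and 3.19 in wild type clones. Averaging probe sets ended the falls of Cenpa (-0.78, limma adjusted p = 0.0568) and Kif20b (-0.32, 0.135). Cdc20 passed under 6 settings, Cdca8 and Nuf2 under 4 each, Melk under 2 and Cenpf under 1. Signs turned for Top2a (-0.04 with median centring, -0.07 with probe sets averaged, -0.29 to 0.23 with 1 clone left out), for Plk4 (0.05 with quantile normalization again, 0.04 with probe sets averaged, 0.09 without suffixed probe sets, -0.19 to 0.23 with 1 clone left out) and for Bub3 (0.43 without suffixed probe sets). The APC/C list's median turned to -0.01 with median centring and lay between -0.05 and 0.09 with 1 clone left out, and that of the MuvB list turned to 0.12 without suffixed probe sets. The causes were not tested. No paired analysis was possible because the groups share 1 clone letter, which pairs nothing.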
